A study of Sus scrofa with 6 samples.

Results

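The EGR, NR4A and IER genes are 3 families of immediate early genes, the genes that cells transcribe first after a growth signal, a hormone or a stress, before any new protein is needed. The 10 members were taken by gene symbol, with no filter on their values, from a count table of 35670 pig Ensembl identifiers: EGR1, EGR2, EGR3, NR4A1, NR4A2, NR4A3, IER2, IER3, IER5 and IER5L. They were chosen with earlier results of these data known. AP-1 genes of the FOS and JUN families are not among them. All 10 symbols matched 1 identifier each. RNA was sequenced from primary cultures of pig granulosa cells, which line the ovarian follicle and nourish the oocyte, aspirated from small healthy follicles and grown in medium with serum. The control group (n = 3) was kept at 37 °C and the heat group (n = 3) at 42 °C for 6 h. Cells of both groups were detached with trypsin before RNA extraction. The labels number the libraries of a group as biological replicates without naming animals or cultures, so p-values measure only the spread between these samples.

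EGR proteins are zinc finger transcription factors, and NAB proteins bind them and repress their activity. NR4A proteins are orphan nuclear receptors that act without a known hormone ligand, partly as heterodimers with RXR, and in steroid-producing cells they bind promoters of steroidogenic genes. In the ovary EGR1 and NR4A1 are known as genes that respond quickly to gonadotropins. IER proteins are grouped by their rapid induction and share no single biochemical function. Transcription of these genes is commonly driven by SRF with its ELK partners, by CREB with its CRTC coactivators, and by MAP kinases upstream of both.

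Library totals lay between 18711440 and 29606378 counts. In the edgeR quasi-likelihood test, 956 of 14242 tested genes were higher in heat and 615 were lower, with p-values adjusted by the Benjamini-Hochberg method and called below 0.05. Scaling by library totals alone gave 1573 higher and 413 lower. Control 2 and control 3 were nearly alike (Pearson r across genes 0.990), as were heat 1 and heat 2 (0.991), while control 1 and heat 3 stood apart from their own groups, at 0.901 to 0.916. Control 1 and heat 3 correlated more with each other (0.920) than with any library of their own groups. These near-identical pairs differed beyond sampling noise (chi-square over its degrees of freedom at least 15.8), but every other pair of libraries differed far more. This test cannot decide whether to merge the pairs, because libraries of 1 culture would also differ beyond this noise. Whether the libraries of such a pair came from 1 culture or animal is unknown. They were not merged, and each library was counted as labelled. With each pair summed into 1 library, 2 genes were called higher and 0 lower, and 1692 had an unadjusted p under 0.05 in edgeR. HSP70.2, an inducible HSP70 gene of the pig, marked the treatment in every library, with 115 to 141 CPM in the controls and 4816 to 5888 CPM in heat. CPM is the read count relative to the library total, scaled by the TMM method. Markers of the labelled cell type were weak. FSHR reached at most 2.14 CPM, and INHA and AMH stayed below 1 CPM in every library, while INHBA was at least 154 CPM and CDH2 at least 209 CPM throughout. Of 12 granulosa markers 10 matched a symbol, 6 were tested and none passed, and their sum was 441 to 1329 CPM in controls and 626 to 1027 CPM in heat. Summed over 7 stromal markers, control 1 had 59032 CPM, control 2 and 3 had 7411 and 6689 CPM, and heat 1, 2 and 3 had 87802, 79269 and 28042 CPM. None of the 7 passed, and the sum was mostly COL1A1, COL1A2 and COL3A1. DCN and LUM, also on this list, were highest in control 1. Summed over 5 smooth muscle markers, the controls had 9969 to 10238 CPM, and heat 1, 2 and 3 had 6952, 6718 and 14675 CPM. None of these 5 passed. Both sums were above the granulosa sum in every library. In bulk samples fewer cells of a type and less RNA per cell cannot be told apart.

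Of the 10 members, IER5L rose 8.61-fold, IER3 fell 3.09-fold, 6 did not pass the test, and EGR2 and EGR3 had too few reads to be tested. NR4A1 and NR4A2 lay higher in every heat library than in every control but missed the threshold. Among all tested genes 6.71% were called higher and 4.32% lower. Groups did not overlap for 3 members that were higher in heat and 1 that was lower. Of all tested genes 20.9% were higher and 16.8% lower in heat without overlap, so separate groups were common. Levels are not compared between genes, because the counts are not scaled by transcript length.

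**Figure D1:**
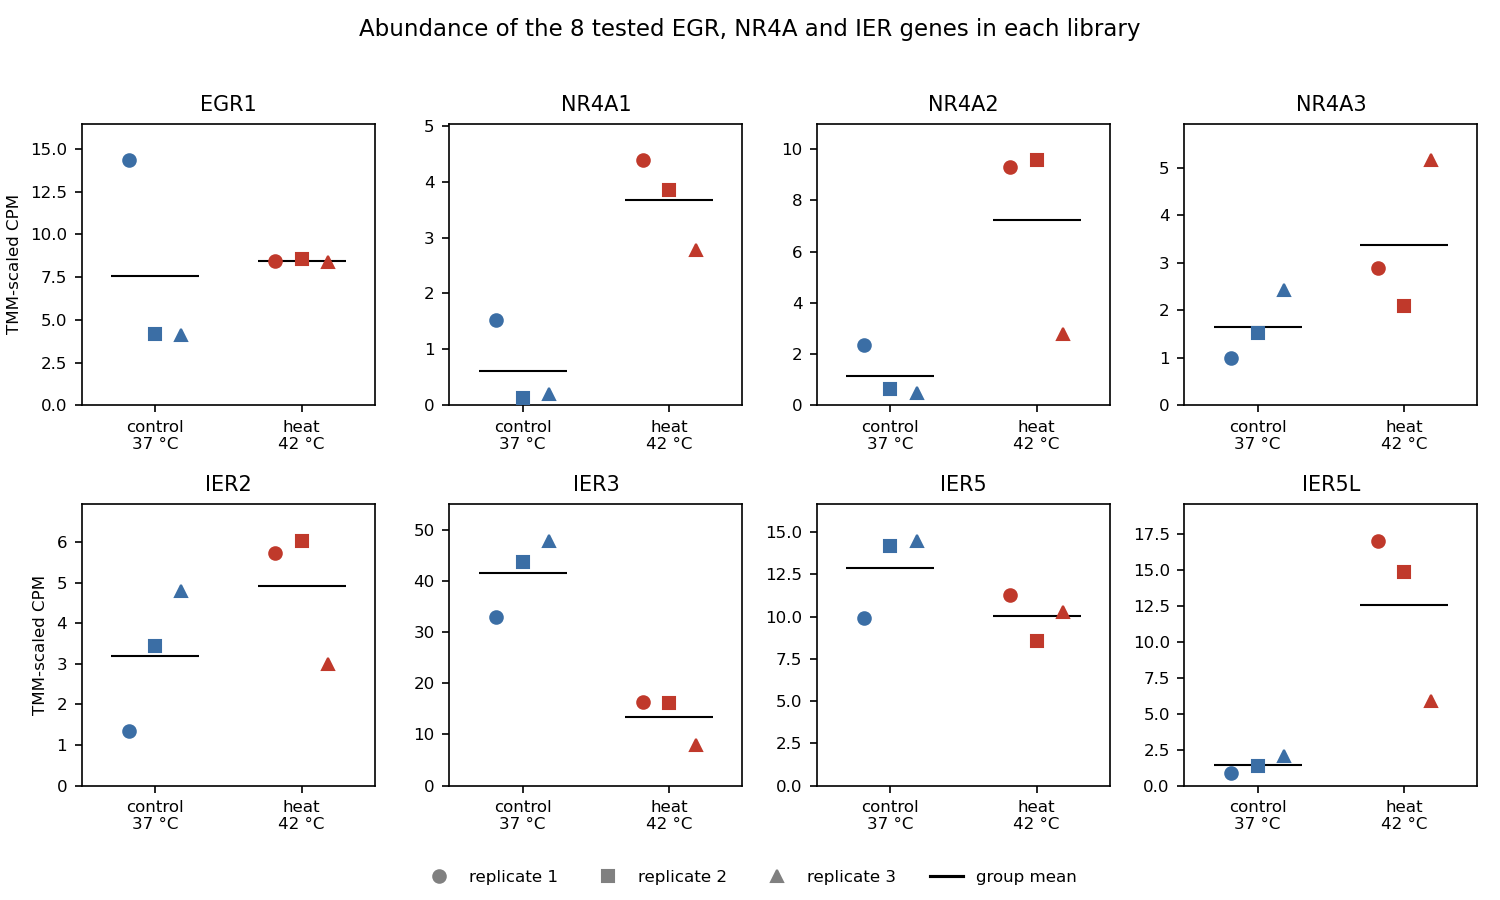
TMM-scaled CPM (y axis, linear, from 0, with its own range for each gene) of the 8 tested members in the 3 control and 3 heat libraries. Each point is 1 library, with its replicate number given by the shape, and each line is a group mean. The groups are separate for NR4A1, NR4A2, IER3 and IER5L and overlap for EGR1, NR4A3, IER2 and IER5.

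EGR1, a factor that gonadotropins and stress induce, did not pass the test, and its level varied more within the controls than between the group means. It stood at 14.3 CPM in control 1, 4.19 in control 2 and 4.11 in control 3, against 8.42, 8.54 and 8.39 CPM in heat 1, 2 and 3. The heat libraries were nearly equal to each other and lay between control 1 above and the other controls below. The group levels were 7.54 ± 5.88 and 8.45 ± 0.0811 CPM (SD, n = 3). The fitted log2 fold change was 0.17 ± 0.52, where positive means higher in heat and the error is the SE (edgeR adjusted p = 0.836). Without control 1 EGR1 was higher in heat by 1.00 ± 0.26 (edgeR adjusted p = 0.0322), and without control 2 or control 3 the difference turned to -0.15 ± 0.55, far from passing. The summed stromal markers were also lowest in control 2 and 3, and their part in this pattern was not tested. EGR1 lies on chromosome 2 at 140440829 to 140445302 (Sscrofa11.1).

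EGR2 and EGR3 were near the limit of detection. EGR2, known for its role in myelination, had 2, 2 and 6 reads in control 1, 2 and 3 and 2, 2 and 7 reads in heat 1, 2 and 3. EGR3 had 0 reads in each control, which allows a level of up to 0.131 to 0.200 CPM depending on the library, and 3, 0 and 4 reads in heat 1, 2 and 3. No difference in EGR2 or EGR3 was detectable at this depth. EGR1 accounted for 394 of the EGR family's reads in controls and 628 in heat, against 10 and 11 reads of EGR2. The annotated span of EGR2 on chromosome 14 (66280665 to 66291308) overlaps that of ADO, so its few reads are uncertain as well. EGR3 lies on chromosome 14 at 6943184 to 6948507.

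NAB2, a corepressor that EGR factors induce and that then represses them, rose about as much as IER5L, and no other gene of its list passed. It stood at 1.27, 1.87 and 2.62 CPM in control 1, 2 and 3, against 19.4, 15.6 and 12.5 CPM in heat 1, 2 and 3. Each heat library was above every control, and control 1, the library with the most EGR1, had the least NAB2. The log2 fold change was 3.03 ± 0.39 (edgeR adjusted p = 0.0266). NAB1, the related corepressor, overlapped between groups at 104 ± 47.4 against 52.3 ± 25.9 CPM (SD, n = 3; edgeR adjusted p = 0.196). WT1, a zinc finger factor whose binding sites resemble those of EGR proteins, stood at 30.0 ± 2.62 against 37.7 ± 9.95 CPM. Of 4 genes listed as EGR relatives and corepressors 3 were tested, and EGR4 matched no identifier. Over all tested genes 6.71% were called higher.

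NR4A1 was at the floor in the near-identical pair of controls and present in all heat libraries. It had 23, 3 and 4 reads in control 1, 2 and 3, or 1.53, 0.131 and 0.198 CPM, and 88, 83 and 91 reads in heat 1, 2 and 3, or 4.38, 3.85 and 2.78 CPM. Each heat library was above every control. The 95% Wilson interval, which covers counting error only, ran from 1.02 to 2.30 CPM in control 1 and from 2.26 to 3.41 CPM in heat 3, the neighbouring libraries of the groups, so these intervals overlap slightly. The log2 fold change was 2.62 ± 0.86 and did not pass (edgeR adjusted p = 0.0793). NR4A1 lies on chromosome 5 at 17403088 to 17407918, where the RefSeq table lists it as a pseudogene on this assembly.

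NR4A2 was high in the near-identical heat libraries. It stood at 2.33, 0.654 and 0.495 CPM in control 1, 2 and 3, against 9.31, 9.56 and 2.78 CPM in heat 1, 2 and 3. The groups did not overlap, but heat 3 was close to control 1, with 95% Wilson intervals of 2.26 to 3.41 and 1.68 to 3.25 CPM. The log2 fold change was 2.66 ± 0.74 (edgeR adjusted p = 0.0564). NR4A2 is best known as a factor of dopamine neurons and is induced in many cell types by cyclic AMP. It lies on chromosome 15 at 63487051 to 63506249. Both NR4A1 and NR4A2 passed without control 1, with log2 fold changes of 4.42 ± 0.52 (edgeR adjusted p = 0.00663) and 3.61 ± 0.69 (edgeR adjusted p = 0.0159). NR4A2 also passed without heat 3 (3.04 ± 0.68, edgeR adjusted p = 0.0242). DESeq2 called both higher, with adjusted p-values of 0.0122 for NR4A1 and 0.00301 for NR4A2. The calls thus differ between tests and libraries, while the direction was higher in heat in each fit that included these genes.

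NR4A3 did not separate the groups. It stood at 1.00, 1.53 and 2.43 CPM in control 1, 2 and 3, against 2.89, 2.09 and 5.16 CPM in heat 1, 2 and 3. Heat 2 was below control 3, and heat 3, the heat library with the least NR4A1 and NR4A2, had the most NR4A3. The log2 fold change was 1.03 ± 0.51 (edgeR adjusted p = 0.194). NR4A3 lies on chromosome 1 at 241569867 to 241611735.

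Within the NR4A family the division of reads differed between libraries, and this comparison does not depend on the scaling of libraries. Shares of 1 family total are tied to each other, so a lower share does not by itself mean fewer reads. NR4A1 held 31.5% of the family's reads in control 1 (95% Wilson interval 22.0 to 42.9%), 5.66% in control 2 (1.94 to 15.4%) and 6.35% in control 3 (2.50 to 15.2%). In heat 1, 2 and 3 it held 26.4% (22.0 to 31.4%), 24.9% (20.5 to 29.8%) and 25.9% (21.6 to 30.8%). The share of NR4A1 in control 1 therefore lay with the heat libraries and apart from the other controls. NR4A3 had 35 of the family's 53 reads in control 2 and 49 of 63 in control 3, but 15 of 73 in control 1. Heat 3 also differed from its group, with NR4A3 at 48.1% against 17.4 and 13.5% in heat 1 and 2. The summed stromal markers given above were likewise lower in heat 3 than in heat 1 and 2 and lowest in control 2 and 3, and their part in the NR4A levels was not tested.

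IER5L, a little-studied relative of IER5, rose in heat. It stood at 0.867, 1.40 and 2.08 CPM in control 1, 2 and 3, against 17.1, 14.9 and 5.89 CPM in heat 1, 2 and 3. Each heat library was above every control, with heat 3 the lowest of its group. The group levels were 1.45 ± 0.608 and 12.6 ± 5.92 CPM (SD, n = 3), which gave a fitted log2 difference of 3.11 ± 0.54 (edgeR adjusted p = 0.0276). It was larger than that of 98.2% of tested genes. The call was lost without control 2, control 3, heat 1 or heat 2, with edgeR adjusted p-values of 0.144, 0.133, 0.143 and 0.137 and log2 fold changes of 2.84 to 3.41. In those fits the test called 0 to 7 genes in all. IER5L lies on chromosome 1 at 269453920 to 269455524, and its span overlaps another annotated locus, LOC110256380. The sources used here do not say whether the counting used strand, so part of its reads is uncertain. Of 3 tested markers of the ovarian surface epithelium 2 were called higher in heat (KRT8 and UPK3B), where 6.71% of all tested genes were. UPK3B reached at most 1.35 CPM. KRT18, not tested, had 3, 0 and 0 reads in control 1, 2 and 3 and 2, 7 and 7 reads in heat 1, 2 and 3. EPCAM was at 0 in every library. The sum over 5 matched markers was 2.01 to 5.47 CPM in controls and 10.3 to 13.9 CPM in heat. The part of these markers in the IER5L difference was not tested.

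IER3, a stress- and NF-kB-inducible gene that modulates cell survival and ERK signalling, fell in heat. It stood at 33.1, 43.8 and 48.0 CPM in control 1, 2 and 3, against 16.4, 16.1 and 7.96 CPM in heat 1, 2 and 3. Every control was above every heat library, and heat 3 was lowest. The group levels were 41.6 ± 7.69 and 13.5 ± 4.78 CPM (SD, n = 3), which gave a fitted log2 difference of -1.63 ± 0.37 (edgeR adjusted p = 0.0403). Without control 2, control 3, heat 1 or heat 2 the log2 fold change lay between -1.78 and -1.56, and the edgeR adjusted p-values were 0.161, 0.154, 0.157 and 0.147. Of 3 tested leukocyte markers only LYZ was called, as lower in heat, although control 1 lay within its heat range. It stood at 0.467, 26.2 and 54.1 CPM in control 1, 2 and 3. CD68 and CD14 did not pass (edgeR adjusted p = 0.435 and 0.930). PTPRC, CD163, AIF1 and CSF1R were not tested, and like LYZ they had most reads in control 2 and 3. In control 1, 2 and 3 PTPRC had 0, 35 and 64 reads, CD163 had 0, 66 and 101, and AIF1 had 2, 30 and 46. In heat 1, 2 and 3 PTPRC had 0 reads each, CD163 had 1, 3 and 0, and AIF1 had 0, 0 and 2. ITGAM, also not tested, had 0, 3 and 3 reads in the controls and 7, 8 and 3 in heat. The sum of 8 leukocyte markers was 34.2 and 68.6 CPM in control 2 and 3, mostly from LYZ, 3.33 CPM in control 1 and 1.40 to 4.73 CPM in heat. IER3 was at 33.1 CPM in control 1, where this sum was as low as in heat. The part of these cells in the IER3 difference was not tested. IER3 lies on chromosome 7 at 23265560 to 23266905.

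IER2 and IER5 overlapped between the groups. IER2, a nuclear protein induced by growth factors, stood at 1.33, 3.44 and 4.80 CPM in control 1, 2 and 3, against 5.73, 6.04 and 2.99 CPM in heat 1, 2 and 3. Heat 3 was below control 2 and 3, and the log2 fold change was 0.61 ± 0.53 (edgeR adjusted p = 0.432). IER5 is a target of p53 and of the heat shock factor HSF1, and its protein brings the phosphatase PP2A to HSF1. It stood at 9.93, 14.2 and 14.5 CPM in control 1, 2 and 3, against 11.3, 8.54 and 10.3 CPM in heat 1, 2 and 3. No heat library exceeded control 2 or 3, and the log2 fold change was -0.36 ± 0.30 (edgeR adjusted p = 0.411). IER2 lies on chromosome 2 at 65909638 to 65912491 and IER5 on chromosome 9 at 122633781 to 122635950.

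**Figure D2:**
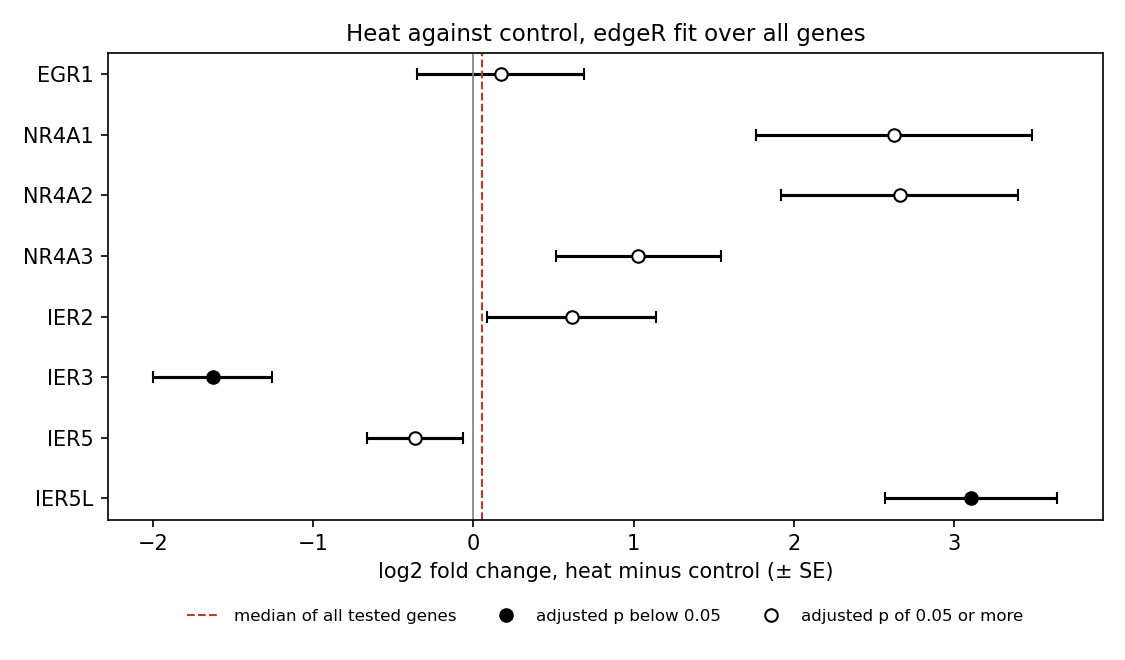
Log2 fold change, heat minus control, of the 8 tested members from the edgeR fit over all genes (x axis), with bars of 1 SE. Filled points passed an adjusted p of 0.05, and the dashed line is the median of all tested genes (0.05). IER5L and IER3 are filled, while NR4A1 and NR4A2 lie far to the right but are open.

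Within the IER family the shares of IER2, IER3 and IER5L did not overlap between the groups, and that of IER5 did. IER3 held 73.2% of the family's reads in control 1 (95% Wilson interval 69.7 to 76.4%), 69.7% in control 2 (67.3 to 72.1%) and 69.2% in control 3 (66.7 to 71.5%). In heat 1, 2 and 3 it held 32.5% (29.7 to 35.4%), 35.4% (32.4 to 38.4%) and 29.4% (26.5 to 32.5%). IER5L went the other way, from 1.92, 2.22 and 3.00% in the controls to 33.9, 32.6 and 21.7% in heat, and IER2 from 2.95 to 6.92% in the controls to as much as 13.3% in heat. Control 1 lay with the other controls here, unlike in the NR4A family. IER5 held 20.9 to 22.6% of the family's reads in the controls, 22.3 and 18.8% in heat 1 and 2 and 37.8% in heat 3, which stood out. Shares of 1 family total are tied to each other, so less IER3 alone raises the shares of the other members. In CPM, IER2 overlapped between the groups, and IER5 in heat 3 (10.3 CPM) lay between heat 2 (8.54 CPM) and heat 1 (11.3 CPM). An exact permutation test of 3 against 3 libraries cannot give a two-sided p below 0.1, so no p is given for these shares.

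**Figure D3:**
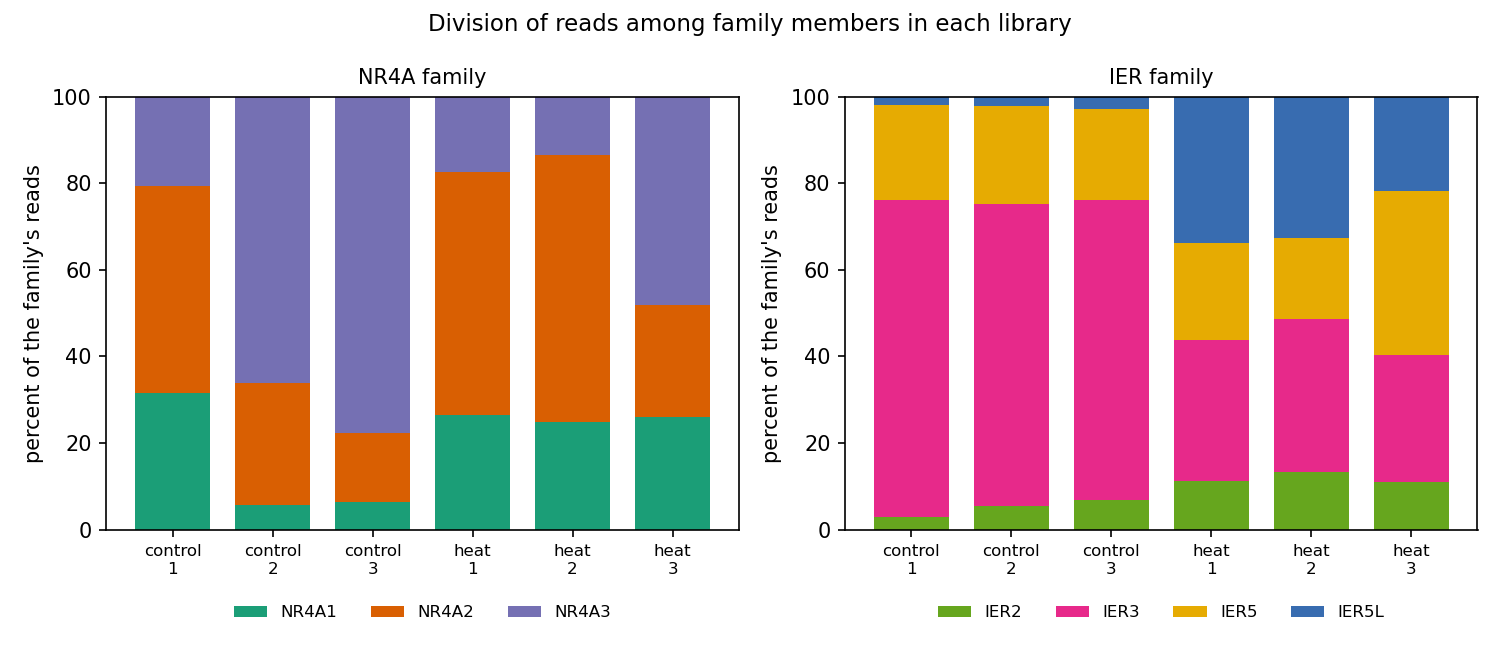
Percent of the reads of the NR4A family (left) and of the IER family (right) that fell on each member (y axis, 0 to 100%) in each of the 6 libraries (x axis). In the IER family the 3 controls are alike, with IER3 at 69.2 to 73.2%, and IER5L takes 21.7 to 33.9% in heat, whereas in the NR4A family control 1 resembles heat 1 and 2.

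The tests with each library left out, from which the values above are taken, changed the calls over all genes too. Without control 2, control 3, heat 1 or heat 2 they called 0, 0, 7 and 6 genes higher and 0 lower. They called 3021 higher and 1901 lower without control 1, and 2817 higher and 2713 lower without heat 3. A call gained or lost by a member is therefore not particular to that member. IER3 and IER5L kept their direction and most of their size in each of the 6 fits, and what changed was the adjusted p. The EGR1 difference was positive with all libraries and without control 1, and turned negative without control 2 or control 3.

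**Figure D4:**
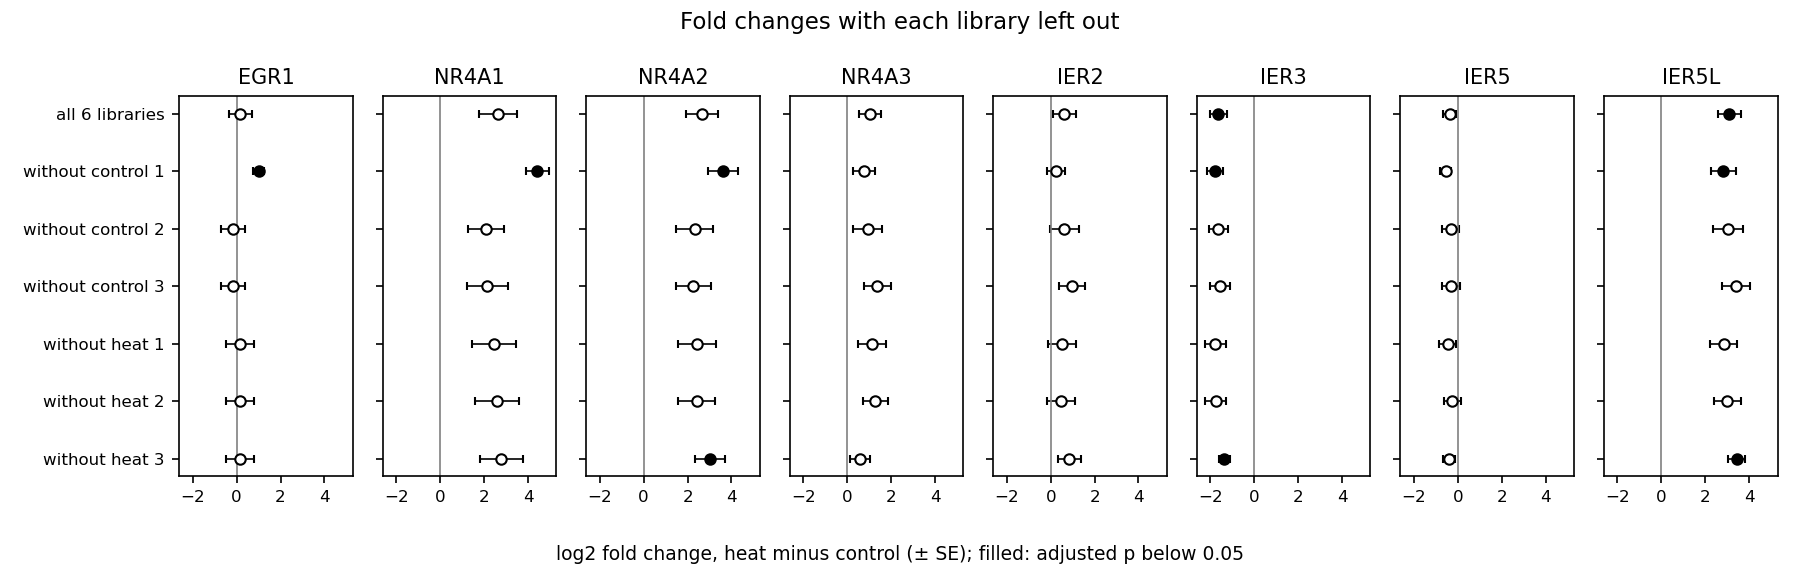
Log2 fold change, heat minus control, of each tested member (x axis, the same for all panels, with bars of 1 SE) with all 6 libraries and with each library left out in turn (y axis). Filled points passed an adjusted p of 0.05. No point is filled without control 2, control 3, heat 1 or heat 2, fits that called 0 to 7 genes in all. Without control 1, 4 members are filled on the positive side, in a fit that called 3021 genes higher.

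Kinases and EGF receptor ligands that act upstream of these genes were called in both directions. Of 21 tested genes of the MAP kinase cascade and EGF receptor system, 2 rose, 2 fell and 17 did not pass, where 6.71% of all tested genes rose and 4.32% fell. The median log2 fold change was 0.33 against 0.05 over all tested genes, and groups did not overlap for 8 that were higher and 2 that were lower in heat. Among all tested genes 20.9% were higher and 16.8% lower in heat without overlap. RPS6KA4 and RPS6KA5, the related kinases MSK2 and MSK1 that phosphorylate CREB, differed in opposite directions. RPS6KA4 rose from 0.667, 1.13 and 1.14 CPM in control 1, 2 and 3 to 6.22, 6.04 and 4.46 CPM in heat 1, 2 and 3 (log2 fold change 2.49 ± 0.40, edgeR adjusted p = 0.0276). RPS6KA5 fell from 4.87, 8.81 and 7.38 to 2.44, 2.65 and 1.71 CPM (log2 fold change -1.64 ± 0.39, edgeR adjusted p = 0.0414). Neither overlapped between groups, and RPS6KA5 did not pass with library totals alone. The EGF receptor ligand BTC fell from 5.21 ± 1.14 to 1.40 ± 0.522 CPM (edgeR adjusted p = 0.0390), and the RAF family kinase ARAF rose from 13.4 ± 2.32 to 31.8 ± 2.19 CPM (SD, n = 3; edgeR adjusted p = 0.0384).

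Transcription factors that drive immediate early genes were tested as well. None of 7 tested genes of SRF and its cofactors passed, with a median log2 fold change of 0.68 and 6 of 7 positive. Of all 14242 tested genes 7416 were positive. SRF itself stood at 8.08 ± 1.45 against 12.9 ± 6.18 CPM (edgeR adjusted p = 0.255), ELK1 at 5.45 ± 0.579 against 10.5 ± 5.28 CPM (edgeR adjusted p = 0.144) and the cofactor MYOCD at 1.94 ± 2.14 against 6.50 ± 0.753 CPM (SD, n = 3; edgeR adjusted p = 0.136). These 3 were higher in heat without overlap between groups, as were 20.9% of all tested genes. ELK4, a partner of SRF, stood at 23.3 ± 1.38 against 24.9 ± 8.33 CPM (SD, n = 3; edgeR adjusted p = 0.846). ELK3, another partner and the only one of the 7 with a negative log2 fold change, was at 14.3 to 16.7 CPM in the controls and at 7.22 and 5.48 CPM in heat 1 and 2, and heat 3 lay within the control range (edgeR adjusted p = 0.246). Leaving out control 1 gave 3 of the 7 as higher, and leaving out heat 3 gave 1 as lower, while limma-voom called 1 higher. Over all tested genes these fits called 3021 of 15407 higher, 2713 of 15325 lower and 1055 of 14242 higher. Of 8 tested CREB factors and coactivators 2 rose and none fell, where 6.71% of all tested genes rose, and both were CRTC coactivators, which bind CREB. CRTC1 rose from 2.17 ± 0.666 to 5.80 ± 0.381 CPM (edgeR adjusted p = 0.0480) and CRTC2 from 4.51 ± 1.06 to 11.7 ± 2.96 CPM (SD, n = 3; edgeR adjusted p = 0.0461). Neither passed with RLE size factors in the edgeR fit, CRTC1 also did not pass with no filter on low counts (edgeR adjusted p = 0.0559), and neither was tested under the 10 CPM filter. CREM matched no identifier.

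Partners of the NR4A and IER5 proteins were examined next. RXRB, a heterodimer partner of NR4A receptors, stood at 8.87 ± 2.31 against 18.9 ± 0.900 CPM (SD, n = 3; edgeR adjusted p = 0.0574), and the orphan receptor NR2F2 stood at 8.15 ± 6.91 against 38.8 ± 15.1 CPM (edgeR adjusted p = 0.0571). None of 5 tested genes of that list passed, but this depended on the setting: 3 were called higher without control 1, with DESeq2 and with limma at pseudocount 1, and 2 without heat 3, with library totals alone, with no filter and with limma-voom. Over all genes the same settings called 1055 to 3021 higher, against 956 in the edgeR test of all 6 libraries. Steroidogenic genes were mostly near the floor. CYP11A1, which makes pregnenolone from cholesterol, stood at 36.4 ± 7.49 against 65.2 ± 6.62 CPM (edgeR adjusted p = 0.0906). STAR, which delivers cholesterol to the mitochondrion, stayed below 1 CPM in every library. HSD3B1 and CYP19A1 matched no identifier, and CYP17A1 and HSD17B1 had too few reads to be tested. Of 7 tested IER5 partners 1 rose and 0 fell, where 6.71% of all tested genes rose and 4.32% fell. This was PPP2R1A, a scaffold subunit of PP2A, which went from 13.5 ± 3.37 to 47.9 ± 6.36 CPM (SD, n = 3; log2 fold change 1.83 ± 0.32, edgeR adjusted p = 0.0276). HSF1 stood at 5.73, 1.87 and 4.41 CPM in control 1, 2 and 3, against 11.5, 10.9 and 10.5 CPM in heat 1, 2 and 3, without overlap, and did not pass (edgeR adjusted p = 0.0649).

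Of 28 tested immediate early genes outside these families and AP-1, 2 rose, none fell and 26 did not pass, a share close to the 6.71% of all tested genes that rose, with a median log2 fold change of 0.53. PER1, a clock gene that CREB induces, stood at 3.67, 1.22 and 2.23 CPM in control 1, 2 and 3, against 27.6, 28.8 and 5.46 CPM in heat 1, 2 and 3 (edgeR adjusted p = 0.0393). SOCS3, a feedback inhibitor of cytokine receptors, stood at 4.20, 2.22 and 4.60 CPM in the controls and at 29.4, 40.8 and 7.63 CPM in heat (edgeR adjusted p = 0.0391). Heat 3 was the lowest heat library for both, as for NR4A1, NR4A2, IER2 and IER5L. It was also the lowest for IER3, which fell in heat, and by a small margin for EGR1. PER1 and SOCS3 did not pass in limma-voom. ARC, a neuronal immediate early gene that was named after its values were seen and was not tested, had 0 reads in each control and 162, 220 and 14 reads in heat 1, 2 and 3. Leaving out control 1 gave 8 of 29 tested as higher and 1 as lower, and leaving out heat 3 gave 6 as higher. Over all tested genes these fits called 3021 of 15407 and 2817 of 15325 higher. Among 5 tested AP-1 genes FOSB rose, from 0.0667, 0 and 0.149 CPM to 1.34, 1.44 and 1.10 CPM (edgeR adjusted p = 0.0325), and FOS stood at 1.53 ± 1.45 against 5.46 ± 2.14 CPM (SD, n = 3; edgeR adjusted p = 0.134).

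**Figure D5:**
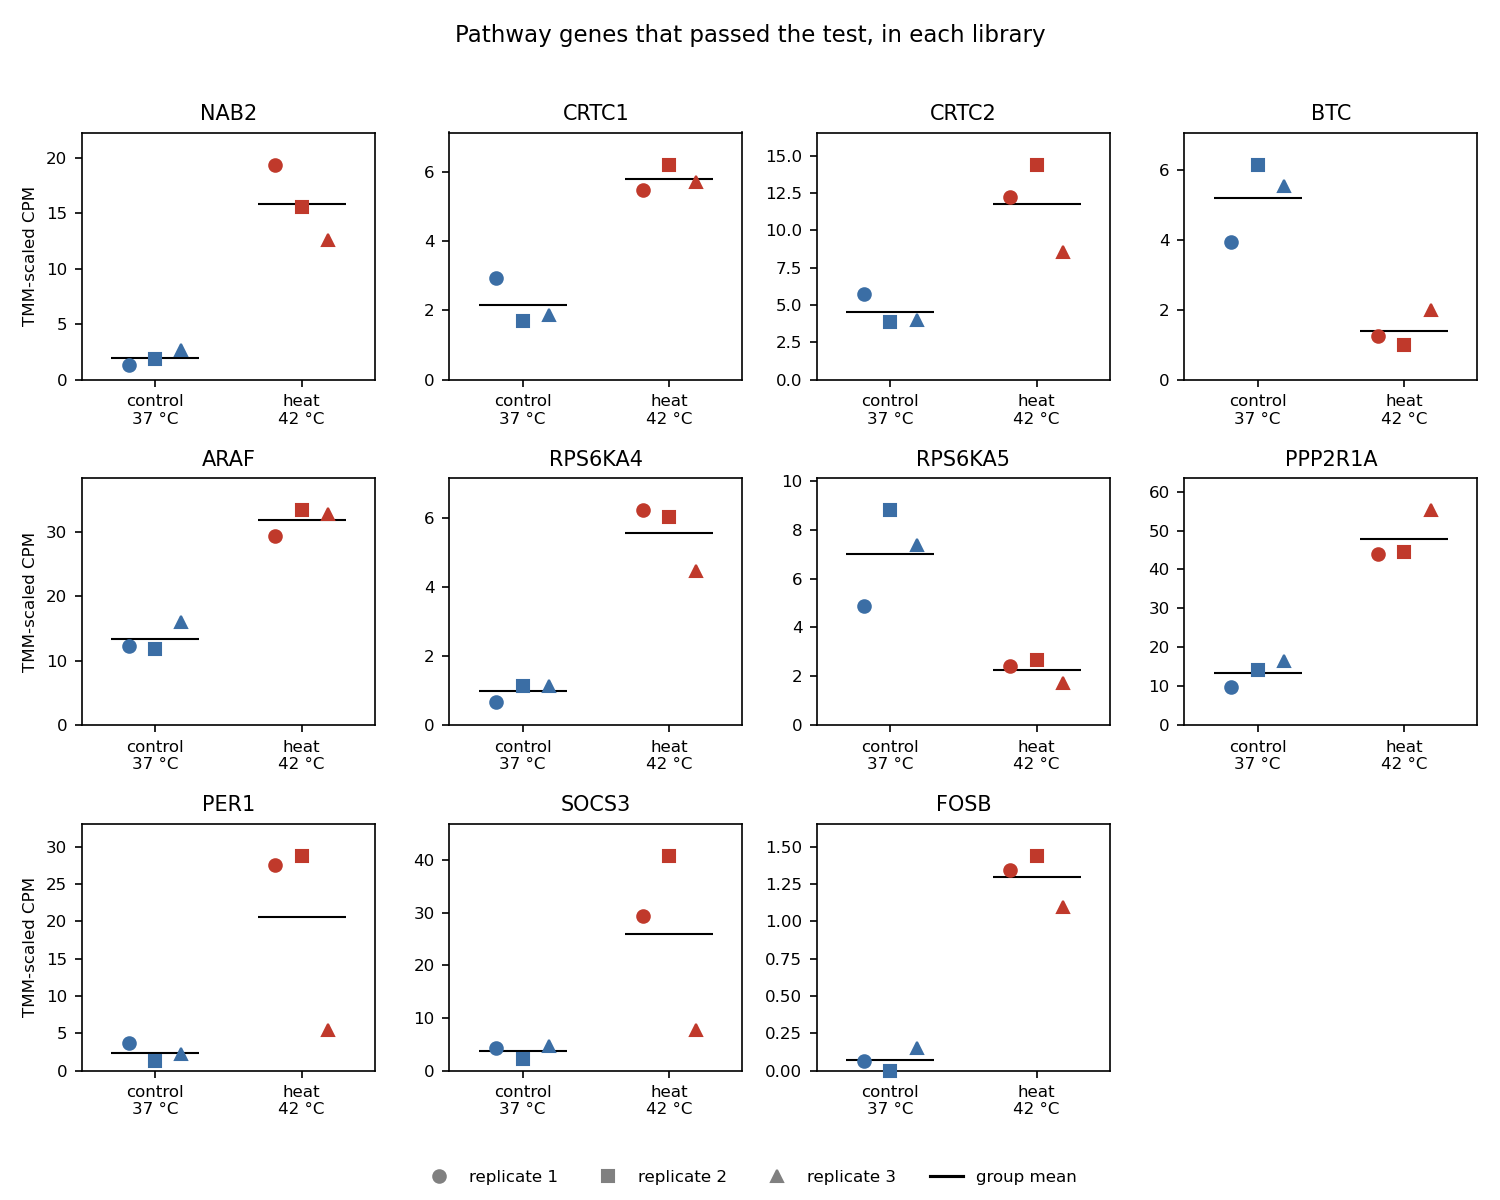
TMM-scaled CPM (y axis, linear, from 0, with its own range for each gene) of the 11 genes of the pathway lists that passed the test, in each of the 3 control and 3 heat libraries. Points are libraries, with replicate numbers by shape, and lines are group means. The groups do not overlap for any of the 11 genes, 9 of which are higher and 2 (BTC and RPS6KA5) lower in heat.

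All 11 of these calls were kept without control 1 and without heat 3, and all 11 were lost without control 2, control 3, heat 1 or heat 2. The same holds for IER3 and IER5L. Leaving out control 1 gave, in total, 6 higher and 2 lower among the MAP kinase and EGF receptor genes, 5 higher among the CREB genes, 2 higher among the IER5 partners and 3 higher among the AP-1 genes. In that fit 3021 of 15407 tested genes were called higher and 1901 lower. Leaving out heat 3 gave, in total, 2 higher and 1 lower among the IER5 partners, 2 higher and 3 lower among the MAP kinase and EGF receptor genes, and 1 higher of the 2 tested steroidogenic genes. That fit called 2817 of 15325 tested genes higher and 2713 lower.

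Genes whose levels followed a member most closely were looked up among at least 9747 tested genes with a symbol and a mean of at least 1 on the log2 CPM scale, as a description over 6 libraries that include near-identical pairs. EGR1 was followed by MAGI3, MDN1 and CDK8, with Pearson r of 0.998 to 0.999, and these genes also had their highest level in control 1. NR4A1 was followed by ABHD2, UBN1 and C2CD2 (each 0.999), and NR4A2 by TECPR2, RETREG2 and PITPNM3 (each 0.997). IER3 was followed by RUFY3 (0.999), ZBED5 and CCDC15 (both 0.995), and IER5L by AJUBA (0.997), ALDH3A2 and NR1H2 (both 0.994). AJUBA, a LIM domain protein of cell junctions, stood at 6.40, 9.94 and 12.3 CPM in control 1, 2 and 3, against 52.3, 58.2 and 26.6 CPM in heat 1, 2 and 3. It was chosen for its likeness to IER5L over these libraries, so its difference between groups is a description. NR4A3 was followed by MAP1LC3A (0.993), IER2 by CTSZ (0.997) and IER5 by FGF5 (0.985). Among the members themselves NR4A1 and NR4A2 were most alike, with r of 0.951, while IER5 ran opposite to NR4A1 with r of -0.86.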

How the data were processed

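The 6 stranded mRNA libraries were sequenced as paired reads, per the labels' protocols. The submitters' processing notes name STAR, Trim Galore, FastQC 0.11.4 and the build Sscrofa11.1. The sources used here give neither the counting tool nor the annotation release. The deposited table holds raw read counts per gene. A second deposited table holds a signal, the authors' counts of 13298 genes divided by 1 size factor per library. Multiplying back gave whole reads for 100% of its values (tolerance 1e-06), and edgeR called 981 genes higher and 650 lower on them.

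Genes were kept by filterByExpr (minimum count 10), which left 14242 identifiers, and 8 of the 10 members. Heat was tested against control in edgeR 4.0.16 (R 4.3.3) by its quasi-likelihood test, which is two-sided. Scaling was by TMM, dispersions were robust, and p-values were adjusted over all tested genes. The SE was taken from the log2 fold change and its F value. Correlations use log2 CPM with a prior count of 2. Symbols came from the reference table and coordinates from RefSeq genes of Sscrofa11.1 by symbol. Wilson intervals are at the 95% level, and they and the limit for 0 reads (3 counts) cover counting error only. Alternatives were run with DESeq2 1.42.0 and limma 3.58.1 and are given in the closing section.

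The members and gene lists were chosen with earlier results of these data known. Named were all members, up to 4 called genes per list by absolute log2 fold change or else the 2 with the highest means, the 3 genes most like each member, and HSF1, HSPA8 and HSP70.2. Not all are printed. NAB1, WT1, SRF, ELK1, MYOCD, FOS, ARC, HSF1 as an IER5 partner and the genes given as absent or near the floor were named after their values were seen. Theca, smooth muscle, endothelial, oocyte and erythrocyte markers were summed as well, with the oocyte marker GDF9 higher in heat and no call in the other 4 lists. The oocyte markers ZP2, ZP3 and ZP4 had 0 reads in every library, and BMP15 had reads in control 3 only. Same-numbered replicates were not taken as pairs. No sequence is printed because none was in the reference tables used here.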

Additional observations from a re-analysis of the deposited data

How the results depend on the processing

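Directions of NR4A1, NR4A2, NR4A3, IER2, IER3, IER5 and IER5L held in each alternative that tested them. EGR1 ranged from -0.15 (without control 2 or control 3) to 1.00 (without control 1) on the log2 scale and turned to -0.16 with the near-identical libraries summed (control 2 with 3, heat 1 with 2), an alternative added after seeing the data. Members called higher (1 in the report) numbered 3 with library totals alone, no filter, DESeq2 and limma on the authors' normalized values (pseudocount 1 or 0.5), 2 with limma-voom, and 0 with the 10 CPM filter or an adjusted p below 0.01. The added fit without control 1 and heat 3, the libraries that stand apart, called 5 higher (EGR1, NR4A1, NR4A2, IER2 and IER5L) and 2 lower (IER3 and IER5), and the added fit with summed libraries called 0 in either direction. Members called lower (1 in the report) numbered 0 with the 10 CPM filter, which left 2 members to test, and 0 at an adjusted p below 0.01. With each library left out, 0 to 4 members were called higher and 0 to 1 lower, 0 to 3021 genes higher and 0 to 2713 lower, and 0 to 31 pathway genes higher and 0 to 5 lower. With 0 calls, edgeR still gave 3164 genes (without control 2) and 3303 (without control 3) an unadjusted p under 0.05.

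Same-numbered libraries deviated from their group means with correlations of 0.30, -0.23 and 0.22, and not every library correlated best with its own number. With 3 libraries per group that include near-identical pairs, these correlations cannot decide whether the numbers mark pairs. The replicate block called 3 members higher, 2105 genes higher and 1301 lower, and 23 pathway genes higher.

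Over all genes, calls higher (956) and lower (615) became 1573 higher with library totals alone, 1607 higher with no filter, 532 and 396 with the 10 CPM filter, 2118 and 1792 with DESeq2, 950 lower with limma at pseudocount 1, 9 and 1 at an adjusted p below 0.01, 6285 and 5857 without the libraries that stand apart, and 2 and 0 with libraries summed. Pathway genes called higher (9) and lower (2) became 15 and 1 with library totals alone, 4 and 0 with the 10 CPM filter, 19 and 4 with DESeq2, 14 higher with limma at pseudocount 1, 0 and 0 at 0.01, 53 and 22 without the libraries that stand apart, and 0 and 0 with libraries summed. The cause of these changes was not tested. Library totals alone shifted the median log2 fold change of all genes from 0.05 to 0.17. At this depth 1 read is worth 0.0305 to 0.0667 CPM, which limits EGR2, EGR3 and NR4A1.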
